A study of Rattus norvegicus with 200 samples.

Results

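The daily course of gene expression was followed in 33 libraries from adult male Wistar rats, an outbred laboratory strain, that were fed chow in the dark phase only. They were all the libraries that the labels give the treatment chow dark-feeding, of 200 libraries in the whole series. The rats were wild type, and the labels name no altered gene and no agent. The labels call the material microglia, the resident macrophages of the brain, from brain tissue, and give no age beyond adult and no region. There were 5 libraries at Zeitgeber time (ZT) 2, 6 at ZT6, 6 at ZT10, 5 at ZT14, 6 at ZT18 and 5 at ZT22, where Zeitgeber time counts hours from lights on. ZT2, ZT6 and ZT10 are in the light phase, when these nocturnal animals had no food, and ZT14, ZT18 and ZT22 are in the dark phase, when they could eat. Light and feeding thus changed together, and their parts in any difference between the phases cannot be told apart within this group. For comparison, 34 libraries came from chow-fed males with food always present (chow ad libitum) and 33 from males given chow in the light phase only (chow light-feeding). Whether each library is a different animal is not stated in the labels, and the p-values describe only how these libraries spread.

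The circadian clock of mammalian cells is a transcription loop. The activators Clock and Arntl (Bmal1) bind E-boxes and switch on Per and Cry genes, whose proteins later block the activators. Nr1d1 and Nr1d2 repress Arntl through RRE sites while Ror receptors activate it from the same sites, and Dbp, Tef and Hlf act at D-boxes, where Nfil3 represses. In brain and other organs the timing of this loop is set by light signals through the hypothalamus and can also follow the time of feeding. Microglia express it too, and glucocorticoids and body temperature, both with daily cycles of their own, reach the same genes.

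The promoters of 4 clock genes are shown because their daily course carries the first result and because each holds one of these sites. A script searched both strands of the RefSeq promoter windows (assembly GRCr8, from 250 bases before to 50 bases after each gene's start) for the E-box CACGTG, the D-box TTATGNAA, the CRE TGACGTCA, the RRE TAGGTCA and the heat shock element GAANNTTC. The genes shown are those with the smallest adjusted p over the 6 times that held a motif in the 250 bases before the start. Each line runs 5′ to 3′ on the strand of the gene up to the base before its start, with the motif in capitals. Per2 (chr9:99496994-99497243, minus strand) holds a D-box 192 bases before the start, Arntl (listed by RefSeq as Bmal1, chr1:176766078-176766327, plus strand) an RRE 16 bases before it, Ciart (chr2:186112247-186112496, minus strand) 3 E-boxes 93, 35 and 21 bases before it, and Bhlhe41 (chr4:180569356-180569605, minus strand) an E-box 48 bases before it.
Per2: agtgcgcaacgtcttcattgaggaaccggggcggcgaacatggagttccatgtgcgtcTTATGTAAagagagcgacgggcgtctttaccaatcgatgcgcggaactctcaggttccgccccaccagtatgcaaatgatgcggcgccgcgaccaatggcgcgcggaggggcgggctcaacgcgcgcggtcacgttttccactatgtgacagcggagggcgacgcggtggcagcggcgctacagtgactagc
Arntl: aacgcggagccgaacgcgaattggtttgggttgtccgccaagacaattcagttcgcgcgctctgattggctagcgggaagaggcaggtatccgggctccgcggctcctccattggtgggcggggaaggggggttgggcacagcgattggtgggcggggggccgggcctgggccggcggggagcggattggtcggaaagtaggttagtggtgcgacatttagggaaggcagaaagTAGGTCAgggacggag
Ciart: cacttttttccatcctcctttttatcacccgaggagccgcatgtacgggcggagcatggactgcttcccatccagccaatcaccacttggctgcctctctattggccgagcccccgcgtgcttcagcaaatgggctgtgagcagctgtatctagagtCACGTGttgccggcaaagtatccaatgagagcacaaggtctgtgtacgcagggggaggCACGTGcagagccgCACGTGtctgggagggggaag
Bhlhe41: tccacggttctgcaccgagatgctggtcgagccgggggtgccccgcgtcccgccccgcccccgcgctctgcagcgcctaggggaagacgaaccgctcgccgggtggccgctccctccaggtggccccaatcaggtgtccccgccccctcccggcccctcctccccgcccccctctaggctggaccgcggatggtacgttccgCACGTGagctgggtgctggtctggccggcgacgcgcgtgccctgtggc
The E-box stood in 4 of the 17 clock genes that matched the table and in 6.65% of all 27457 promoter windows of the same length. The D-box stood in 1 of the 17 and in 3.54% of all, the RRE in 1 and in 2.6%, the heat shock element in 1 and in 8.34%, and the CRE in 0 and in 1.91%. The 4 clock genes with an E-box were Ciart, Bhlhe41, Tef and Bhlhe40. Among the 11127 windows of genes tested here, the E-box stood in 9.23%, the D-box in 1.88%, the RRE in 1.75%, the heat shock element in 5.57% and the CRE in 3.15%. A match is a description of these letters and says nothing of which factor binds.

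Library totals ran from 4.75 M to 9.42 M expected counts and the median was 7.57 M. No pair among the 33 libraries was identical or agreed within sampling noise. Per length, the defining markers of microglia were all above 0, with a median of 27.7 FPKM over 25 genes (the authors' values, scaled for transcript length and library size). Markers of some other brain cells had higher medians than those of microglia. These were 231 FPKM over 13 oligodendrocyte genes, 137 over 10 cerebellar neuron genes and 62.6 over 15 neuron genes. The median was 14.6 over 9 oligodendrocyte precursor genes and 13.3 over 14 astrocyte genes. None of these markers was at 0. In such bulk RNA, fewer cells of a type and less RNA per cell cannot be told apart.

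Some libraries stood apart from the rest. Every library's title carries a number, and what it stands for is not given in the sources used here. Title numbers 49 to 51, which are 3 ZT14 libraries, had more of their counts on short transcripts: the median centred log2 level of the shortest 10% of genes (up to 880 bases) minus that of the longest 10% (at least 5701 bases) was 0.69, 0.74 and 0.53. It was 0.22 and -0.04 in the other 2 ZT14 libraries, and the medians of the other times lay between -0.16 and 0.08. Among all 100 chow libraries, the 7 with title numbers 49 to 57, from 3 groups and 2 times, lay between 0.40 and 0.77 and the other 93 between -0.44 and 0.47, with 1 of the 93 above 0.40. The same 3 ZT14 libraries held 3770, 6790 and 1400 CPM (counts scaled to library size, with TMM) from erythrocyte genes, against 612 and 382 in the other 2 ZT14 libraries and 223 to 780 at all other times. For named genes the value without them, which leaves ZT14 with 2 libraries, is given where it ended a call or moved by over 1.5 times, and for other values where it bears on the result. The part that these title numbers play in a result was not tested beyond that. Libraries with title numbers 142 and 143 (ZT18) and 151 (ZT22) also lay far from the others on the first scaling axis. Their summed homeostatic microglia genes, at 1510, 1920 and 1990 CPM, were below the 2300 to 4270 of the rest.

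**Figure D1:**
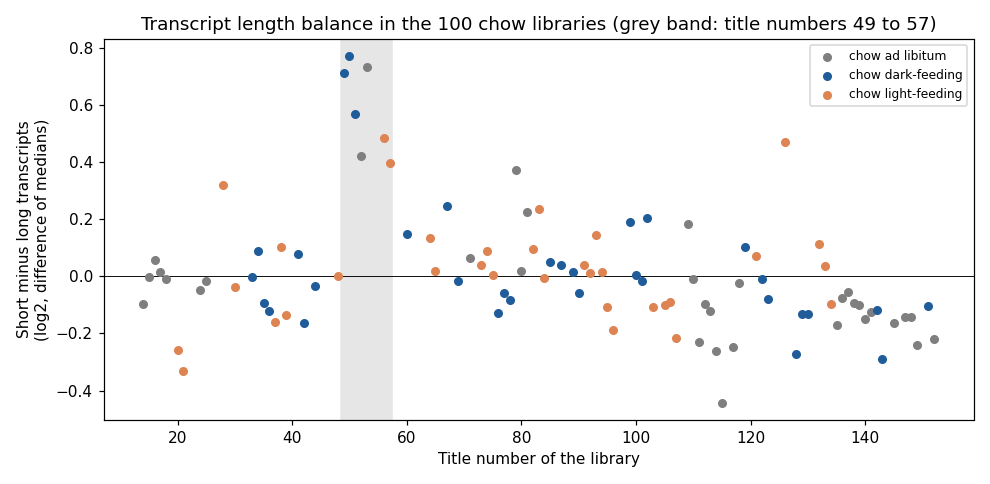
Median centred log2 level of the shortest minus the longest transcripts (y axis, log2) in each of the 100 chow libraries, by title number (x axis), with colours for the 3 feeding schedules. The 7 libraries with title numbers 49 to 57, in the grey band, lie between 0.40 and 0.77, and 3 of them are ZT14 libraries of the dark-fed group.

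As a check of the labels, the 20 clock genes of each library were correlated with the mean course of the other libraries. In 25 of the 33 libraries the best match was the labelled time, in 7 it was a neighbouring time 4 h away, and in 1, ZT2 replicate 4, it was ZT10, 8 h away (r of -0.21 at its own time and 0.56 at ZT10). Without that library 4923 genes passed the test over 6 times in place of the 5075 given next.

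Of 14244 genes with a mean of at least 1 CPM, 5075 (35.6%) differed between the 6 times at an adjusted p under 0.05 (edgeR quasi-likelihood F test, Benjamini-Hochberg adjustment over all genes tested). The changes were mostly small: the median from the lowest to the highest time mean was 0.48 on the log2 scale among these genes and 0.37 among all genes tested, and 383 of the 5075 changed at least 2-fold. A 24 h cosine was called in 3255 genes (22.9%), 2706 of which also passed the F test, and 96 had a cosine change from trough to peak of at least 2-fold. Without title numbers 49 to 51 the F test called 2079 genes, 2048 of them among the 5075, and the cosine called 2990, 2488 of them among the 3255. With scores for the markers of other cells in the model the F test called 1406. With runs of adjacent title numbers in place of libraries as the unit the F test called 10. Of the named genes' values, 54 of 184 lost their call with the marker scores and 3 more turned in direction. With runs as the unit, 141 of 164 lost it. With all 33 libraries, the highest mean of 1653 called genes (32.6%) and the lowest mean of 1623 (32%) fell at ZT14, and 1799 had neither there.

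Per2, a repressor of the loop and a gene that glucocorticoids also induce, had the smallest adjusted p of all clock genes. It measured 57.4, 80.3, 87.6, 94.3 and 129 CPM at ZT2, 59.6 to 137 with a median of 89 at ZT6, and 91.2 to 165 with a median of 112 at ZT10. In the dark phase it measured 204, 257, 281, 308 and 339 CPM at ZT14, 309 to 444 with a median of 388 at ZT18, and 159, 172, 218, 253 and 317 at ZT22. All libraries of ZT14 and ZT18 lay above every light-phase library, while ZT22 overlapped ZT10. ZT18 exceeded ZT2 4.29-fold (log2 2.10, adjusted p = 5.76e-10), and the dark phase exceeded the light phase by 1.54 ± 0.11 on the log2 scale (± SE throughout for fitted differences, adjusted p = 3.05e-11). Its cosine peaked at ZT17.36. The ZT18 to ZT2 difference was 2.10 without title numbers 49 to 51, with an adjusted p of 4.97e-09.

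Among the other repressors, Cry1 measured 12.8, 15.8, 16.7, 16.8 and 19 CPM at ZT2, 13 to 24.9 with a median of 18.7 at ZT6, and 10.9 to 16.2 with a median of 13.9 at ZT10. It then measured 22.6, 23.7, 24.7, 30.9 and 30.9 CPM at ZT14, 27.8 to 43.3 with a median of 34.2 at ZT18, and 25.9, 27.6, 29.8, 29.9 and 32.3 at ZT22. Every library of ZT18 and ZT22 was above every light-phase library, and ZT18 exceeded ZT10 by 1.30 (2.46-fold, adjusted p = 6.7e-08). Per1 was highest at ZT18 and lowest at ZT2, with means of 295 and 124 CPM (log2 1.26, adjusted p = 4.91e-07). Per3 was highest at ZT10 (0.82 above ZT2, adjusted p = 0.000115), but its cosine peaked at ZT14.52, and its ZT14 libraries were split: title numbers 49 to 51 read 171, 189 and 195 CPM and the other 2 read 301 and 310. Cry2 changed least of these, by 0.29 between ZT6 and ZT18 (adjusted p = 0.00956). Ciart, a repressor that binds the Clock-Arntl pair, rose from a median of 10.3 CPM at ZT6 to 23.8 at ZT10, and its ZT14 libraries measured 24.4, 27.2, 31.2, 33.4 and 33.7. Its ZT22 libraries, at 8.17, 8.56, 9.59, 10.1 and 14 CPM, all lay below those of ZT10, ZT14 and ZT18, and ZT14 exceeded ZT22 2.95-fold (log2 1.56, adjusted p = 1.57e-06). Bhlhe41, which competes at E-boxes, was 0.51 higher at ZT14 than at ZT22 (adjusted p = 0.000363), and 0.33 higher without title numbers 49 to 51 (adjusted p = 0.0296). Its relative Bhlhe40 did not pass (0.37 between ZT14 and ZT2, adjusted p = 0.208).

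The activators ran opposite to the repressors. Arntl measured 29.9, 42.2, 45.3, 45.9 and 49.1 CPM at ZT2, 39.5 to 48.7 with a median of 43.7 at ZT6, and 26.6 to 37.7 with a median of 29 at ZT10. It measured 17.4, 22.3, 23.5, 24.5 and 26.7 CPM at ZT14, 24.3 to 28.7 with a median of 25.2 at ZT18, and 29.8, 32.1, 32.1, 36.6 and 36.6 at ZT22. All ZT14 libraries lay below all ZT2, ZT6 and ZT22 libraries, and ZT6 exceeded ZT14 1.92-fold (log2 0.94, adjusted p = 1.94e-07). Its cosine peaked at ZT3.42 and that of Clock at ZT4.08, and Clock was 0.54 higher at ZT6 than at ZT14 (adjusted p = 0.000352, and 0.39 without title numbers 49 to 51, adjusted p = 0.027). Npas2, which can stand in for Clock, did not pass (adjusted p = 0.0772).

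Among the nuclear receptors that act on Arntl, both repressors changed. Nr1d1 measured 102 to 114 CPM with a median of 107 at ZT10 and 48.7, 49, 51.2, 58.5 and 59.2 at ZT22, with no overlap (log2 1.01, 2.01-fold, adjusted p = 2.99e-05). It stood at 46.1, 50.4, 50.4, 53.1 and 102 CPM at ZT2, the last in ZT2 replicate 4, and its cosine peaked at ZT11.82. Nr1d2 was 0.81 higher at ZT14 than at ZT2 (adjusted p = 3.55e-05), with a cosine peak at ZT13.76. Of the activating receptors, Rora (adjusted p = 0.097) and Rorb (adjusted p = 0.0763) did not pass.

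The factors of the D-box came between Nr1d1 and Per2. Dbp, an output of the clock in most tissues, measured 21.9, 25.9, 26.6, 31.9 and 65.7 CPM at ZT2, 29.4 to 48.4 with a median of 37.3 at ZT6, and 54.4 to 71.1 with a median of 63.2 at ZT10. It measured 83.9, 89.6, 94.4, 96.7 and 105 CPM at ZT14, 50.1 to 56.6 with a median of 54.7 at ZT18, and 30.9, 32.1, 33.8, 35 and 39.7 at ZT22. The ZT14 libraries were all above every other library, and ZT14 exceeded ZT22 2.74-fold (log2 1.45, adjusted p = 1.62e-07). The value of 65.7 at ZT2 belongs to replicate 4 and stands far above the other 4. Tef was 0.66 higher at ZT18 than at ZT2 (adjusted p = 0.000501), and Hlf 0.86 higher at ZT14 than at ZT6 (adjusted p = 0.000564, and 0.59 without title numbers 49 to 51, adjusted p = 0.0161). Nfil3, their competitor, was highest at ZT22 and lowest at ZT10 (0.70, adjusted p = 0.00766) with a cosine peak at ZT21.47.

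In all, 16 of the 20 clock genes passed the F test, against 35.6% of all genes, and 16 passed the cosine test. The F test called 15 without title numbers 49 to 51, and 13 in a model that held scores for the markers of other cells. Among all 14244 genes it called 2079 and 1406. Cosine peaks ran through the day from Arntl at ZT3.42 and Clock at ZT4.08 over Nr1d1 at ZT11.82, Dbp at ZT13.5, Ciart at ZT13.7 and Per1 at ZT15.42 to Per2 at ZT17.36, Cry1 at ZT18.7 and Nfil3 at ZT21.47.

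**Figure D2:**
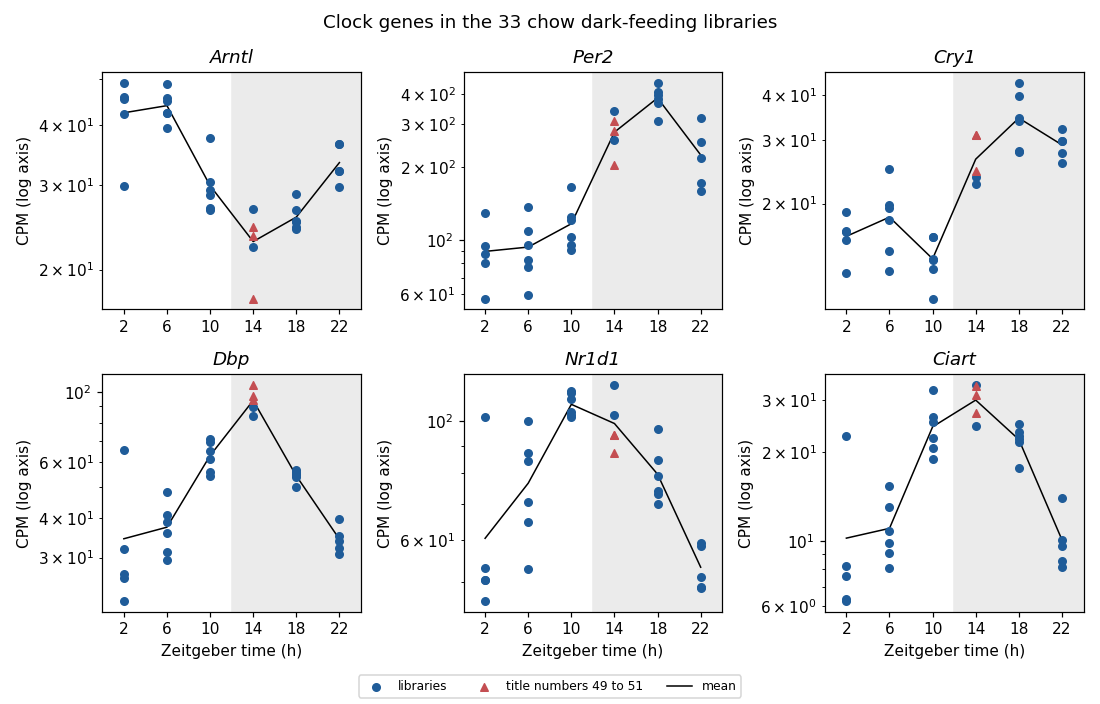
CPM on a log axis (y axis) by Zeitgeber time in hours (x axis) for 6 clock genes, with 1 point per library, triangles for title numbers 49 to 51, a line through the means and grey for the dark phase. Arntl is highest at ZT6 and lowest at ZT14, Nr1d1 highest at ZT10, Dbp and Ciart at ZT14, and Per2 and Cry1 at ZT18.

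The 5 genes whose 6 time means were most like those of Per2 were Pecr (Pearson's r = 0.999 over 6 time means), Txndc12 (0.994), Ankrd45 (0.994), Pmpcb (0.993) and Usp10 (0.993), given as a description. Pecr, a reductase of fatty acid chain elongation in peroxisomes, also stood among the genes with the smallest adjusted p.

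The clock courses of the dark-fed group were set beside those of the other chow groups. With food always present, Per2 had a cosine change from trough to peak of 1.86 with a peak at ZT17.52, against 2.23 and ZT17.36 with food in the dark phase. Arntl had 0.84 with a peak at ZT3.56, against 0.98 and ZT3.42, and Dbp 1.22 with a peak at ZT12.67, against 1.47 and ZT13.5. Of 14214 genes tested, 4 (0.0281%) had a cosine that differed from chow ad libitum, none of them a clock gene, whose adjusted p values were 0.248 or more. That count moved with the choices made: DESeq2 called 146, edgeR called 296 without ZT14 and 1 without title numbers 49 to 57. A p that misses the threshold does not show that the courses were alike. With food in the light phase only, Per2 had a change of 0.78 with a peak at ZT21.67 that did not pass the cosine test (adjusted p = 0.0746), Arntl 0.55 with a peak at ZT7.95, and Dbp 0.32 with a peak at ZT18.29 (adjusted p = 0.0383). Cry1, with a change of 0.34, did not pass there either (adjusted p = 0.305). The cosine differed from chow light-feeding in 5343 of 14250 genes (37.5%), and in 15 of the 20 clock genes. The smallest adjusted p values were those of Arntl (4.7e-07), Dbp (5.09e-07), Ciart (1.81e-06) and Per2 (6.81e-06). Without title numbers 49 to 57 in either group 3955 genes differed.

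Beside the clock genes, 20 other genes had the smallest adjusted p values over the 6 times, between 5.76e-10 and 1.83e-06. Of these, 14 had their highest mean at ZT18, 1 (Grm4) at ZT22, and 5 (Tmem63c, Cdh15, Hr, Adamts18 and Acr) at ZT2 or ZT6 with their lowest at ZT14. All 20 also passed without title numbers 49 to 51, with adjusted p values of at most 5.79e-05. Diexf, a nucleolar protein of ribosome assembly, measured 27.2, 29.6, 33.1, 34.1 and 34.4 CPM at ZT2, 34.3 to 40.8 with a median of 37.2 at ZT6, and 29.8 to 34.9 with a median of 33.8 at ZT10. It measured 46.7, 47.5, 48.5, 55.6 and 62.4 CPM at ZT14, 58.2 to 73.5 with a median of 67.6 at ZT18, and 43.2, 45.5, 47.7, 55.9 and 65.9 at ZT22. No dark-phase library overlapped a light-phase library, and ZT18 exceeded ZT2 2.12-fold (log2 1.08, adjusted p = 5.76e-10). The dark phase exceeded the light phase by 0.73 ± 0.05.

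The other genes with a ZT18 peak came from several classes. Arhgap10, which by its name belongs to the GTPase-activating proteins, was 0.63 higher at ZT18 than at ZT2, and Kcnj14, an inward rectifier potassium channel, 0.92 higher at ZT18 than at ZT10. Rbm4, an RNA-binding splicing regulator, was 0.80 higher at ZT18 than at ZT10, and Ypel3 0.52 higher. Dnajb5 (0.68) and Ahsa2 (0.69) serve the chaperones Hsp70 and Hsp90, and Ube2g2 (0.63) tags misfolded proteins of the endoplasmic reticulum for removal. P4ha1 (0.74), a prolyl hydroxylase of collagen, Pecr (0.81), Idh3g (0.45), a subunit of a Krebs cycle enzyme, Midn (0.64), Clec16a (0.39), a mitophagy factor, and Xkr8 (0.91), a lipid scramblase, completed them, each between its lowest time and ZT18. Tmem63c, an ion channel, measured 381, 401, 412, 454 and 455 CPM at ZT2, 327 to 443 with a median of 384 at ZT6, and 376 to 424 with a median of 412 at ZT10. It measured 195, 196, 226, 253 and 280 CPM at ZT14, 244 to 311 with a median of 291 at ZT18, and 289, 316, 316, 317 and 376 at ZT22. The ZT14 libraries were below all light-phase libraries, and ZT2 exceeded ZT14 by 0.87 (0.66 without title numbers 49 to 51, adjusted p = 4.38e-06). The lowest ZT14 values, 195, 196 and 226 CPM, are those of title numbers 49 to 51. Cdh15, a cadherin (0.79), Hr, a corepressor of nuclear receptors (0.74), and Adamts18, a secreted protease (1.08), had the same low point. Acr was highest at ZT2, with 11.4, 12.5, 12.9, 14.2 and 18.2 CPM, and lowest at ZT14, with 3.96, 4.9, 5.4, 5.96 and 6.46 (2.59-fold). Grm4, a glutamate receptor, measured 699, 707, 718, 761 and 796 CPM at ZT14 and 1130, 1200, 1290, 1420 and 1580 at ZT22, with no overlap (log2 0.85).

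Set against the light phase, 1914 genes (13.4%) were higher and 1733 (12.2%) lower in the dark phase, when food was present. Without title numbers 49 to 51 the counts were 1079 and 991. On log2(FPKM + 0.1) limma called 2285 higher and 1202 lower, and on log2(FPKM + 1) 2322 and 1207. These fits also differ from edgeR in the test, the filter and the number of genes (16287). With DESeq2 size factors in place of TMM, edgeR called 1860 higher and 1763 lower. The cause of the different split was not tested. The 6 genes with the largest rise were Npas4 (2.16 ± 0.30), Fos (2.13 ± 0.32), Nr4a3 (1.62 ± 0.25), Per2 (1.54 ± 0.11), Nr4a2 (1.34 ± 0.21) and Eomes (1.28 ± 0.18), 4 of them genes that neurons and other cells switch on within minutes of a stimulus. The 6 with the largest fall were Rlim (-0.84 ± 0.25), Cyp2j10 (-0.70 ± 0.10), Myof (-0.69 ± 0.10), Adamts18 (-0.69 ± 0.07), Ngfr (-0.69 ± 0.10) and Arid4b (-0.68 ± 0.09). Of the 12, Rlim lost its call without title numbers 49 to 51 (adjusted p = 0.0705), and Fos (adjusted p = 0.064), Nr4a2 (adjusted p = 0.0977) and Rlim (adjusted p = 0.254) lost it in the model with scores for the markers of other cells.

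Of 23 immediate early genes tested, 15 were higher in the dark phase (13.4% of all genes) and 0 lower (12.2% of all genes), with a median difference of 0.47 over the list and 0.01 over all genes. Fos, the founding member, measured 0.777, 0.841, 1.84, 2.36 and 2.92 CPM at ZT2, 2.15 to 13 with a median of 3.58 at ZT6, and 1 to 3.01 with a median of 1.35 at ZT10. It measured 1.94, 9.2, 10.1, 15.1 and 15.7 CPM at ZT14, 4.67 to 42.1 with a median of 10.5 at ZT18, and 4.09, 4.75, 5.38, 7.44 and 16.2 at ZT22. The libraries of 1 time spread widely: no ZT2 or ZT10 library exceeded 3.01 CPM and every dark-phase library but 1 lay above that, while the ZT6 libraries overlapped those of the dark phase. Npas4, which neurons induce on firing, also had its highest mean at ZT18. It measured 1.17, 1.34, 1.66, 2.64 and 3.89 CPM at ZT2 and 7.57 to 51.5 with a median of 17.2 at ZT18 (log2 3.29, adjusted p = 4.97e-05). The 42.1 CPM of Fos and the 51.5 CPM of Npas4 at ZT18 are both from title number 143. That library lay far from the others on the first scaling axis. For Fos the middle ZT14 value was 10.1 CPM, near the ZT18 median of 10.5. Nr4a3, an orphan nuclear receptor, was highest at ZT14 (3.89, 8.42, 8.45, 12.4 and 23.2 CPM) and lowest at ZT10 (1.58 to 2.37 with a median of 2.14), 5.35-fold apart. Over the 6 times 18 of the 23 passed the F test. In the fit without title numbers 49 to 51, 14 passed it and 12 were higher in the dark phase. Among all 14244 genes 2079 passed and 1079 were higher in that fit.

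Glucocorticoids, the adrenal stress hormones, rise in nocturnal rodents towards the onset of darkness. Of 16 genes of the glucocorticoid-induced list, 11 were higher in the dark phase and 0 lower (median 0.30), where 13.4% and 12.2% of all genes were. The F test called 12 of them and 35.6% of all genes. Zbtb16, a zinc finger protein, measured 20.3, 21.2, 26.3, 26.3 and 31.8 CPM at ZT2, 16.7 to 24.9 with a median of 18.9 at ZT6, and 17.8 to 40.3 with a median of 29 at ZT10. It measured 30.1, 48.1, 54.8, 56.1 and 96.7 CPM at ZT14, 27.8 to 42 with a median of 36.9 at ZT18, and 23.7, 24.1, 27.3, 36.5 and 42.8 at ZT22. The ZT14 libraries were all above those of ZT6, 2.83-fold on average (adjusted p = 6.1e-05). Klf9, a repressor that glucocorticoids induce, rose earlier: it measured 24.3, 24.3, 24.7, 24.9 and 28.1 CPM at ZT2 and 37.8 to 45 with a median of 40.3 at ZT10, without overlap (log2 0.70, adjusted p = 3.55e-05). Dusp1, a phosphatase of MAP kinases, measured 12.1, 12.3, 15.8, 16.3 and 18.7 CPM at ZT2 and 26.8 to 76.4 with a median of 30.9 at ZT18 (2.54-fold, adjusted p = 7.82e-05). Of the 16, 9 passed the F test and 10 were higher in the dark phase when title numbers 49 to 51 were left out. Among all 14244 genes 2079 passed and 1079 were higher in that fit. Per1 is in the glucocorticoid-induced list too.

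Heat shock chaperones refold proteins and are induced by heat and other stress. Of 23 cytosolic chaperones tested, 16 were higher in the dark phase and 0 lower (median 0.41), beside 13.4% and 12.2% of all genes. The F test called 18 of them, beside 35.6% of all genes. Hsp90ab1, the constitutive Hsp90, measured 287, 304, 323, 324 and 328 CPM at ZT2, 296 to 383 with a median of 336 at ZT6, and 299 to 333 with a median of 317 at ZT10. It measured 348, 412, 493, 595 and 682 CPM at ZT14, 379 to 548 with a median of 487 at ZT18, and 390, 401, 470, 493 and 498 at ZT22. The lowest library of ZT14 and that of ZT18 read below the highest of ZT6, all other dark-phase libraries were above every light-phase library, and the dark phase exceeded the light phase by 0.57 ± 0.07 (adjusted p = 4.43e-07). Its change from ZT2 to ZT14 was 0.69 with all libraries and 0.28 without title numbers 49 to 51 (adjusted p = 6.29e-06), which read 493 to 682 CPM against 348 and 412 in the other 2. Cryab, a small heat shock protein, was 2.64-fold higher at ZT14 than at ZT6, with 16.1, 20, 23.7, 29 and 51.5 CPM against 8.33 to 12.1. On the log2 scale this was 1.40, and 0.91 without title numbers 49 to 51 (adjusted p = 1.58e-05), which averaged 33.5 CPM against 16.1 and 23.7 in the other 2. Stip1, which joins Hsp70 to Hsp90, was 0.60 higher at ZT18 than at ZT10. Of the 23, 13 passed the F test and 13 were higher in the dark phase when title numbers 49 to 51 were left out. Among all 14244 genes 2079 passed and 1079 were higher in that fit.

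Chaperones of the endoplasmic reticulum were split more. Of 19 tested, 9 were higher in the dark phase and 0 lower (median 0.14), beside 13.4% and 12.2% of all genes. Without title numbers 49 to 51, 6 were higher and 1 lower, beside 1079 and 991 of all 14244 genes. Xbp1, a transcription factor of the unfolded protein response, was highest at ZT18, with 96.8 to 149 CPM and a median of 119 against 62.1, 63.2, 70.6, 71.3 and 79.5 at ZT2 (log2 0.79, adjusted p = 1.72e-05). Manf, a secreted stress protein, was 0.70 higher at ZT14 than at ZT2 (0.34 without title numbers 49 to 51), and Hspa5, the Hsp70 of this compartment, 0.67 higher (0.37 without them). All 3 kept an adjusted p of at most 0.000552 there. Of 15 ATF4 targets, the genes of the amino acid response, 2 were higher in the dark phase and 2 lower. These counts are near the shares of all genes (13.4% and 12.2%).

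Cold-inducible RNA-binding proteins rise when temperature falls. Rbm3 measured 156, 159, 182, 189 and 220 CPM at ZT2, 172 to 226 with a median of 205 at ZT6, and 185 to 233 with a median of 196 at ZT10. It measured 148, 159, 160, 185 and 202 CPM at ZT14, 114 to 150 with a median of 130 at ZT18, and 119, 132, 141, 172 and 173 at ZT22. The ZT18 libraries were below all light-phase libraries, and ZT6 exceeded ZT18 by 0.61 (adjusted p = 8.25e-05). Cirbp was 0.48 higher at ZT10 than at ZT18 (adjusted p = 0.000782). Of the 3 genes in the list, these 2 were lower in the dark phase and 1, Srsf5, was higher (0.15 ± 0.05, adjusted p = 0.0179). Of 15 SR splicing factors, 4 were higher and 1 lower. Among all genes 13.4% were higher and 12.2% lower.

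**Figure D3:**
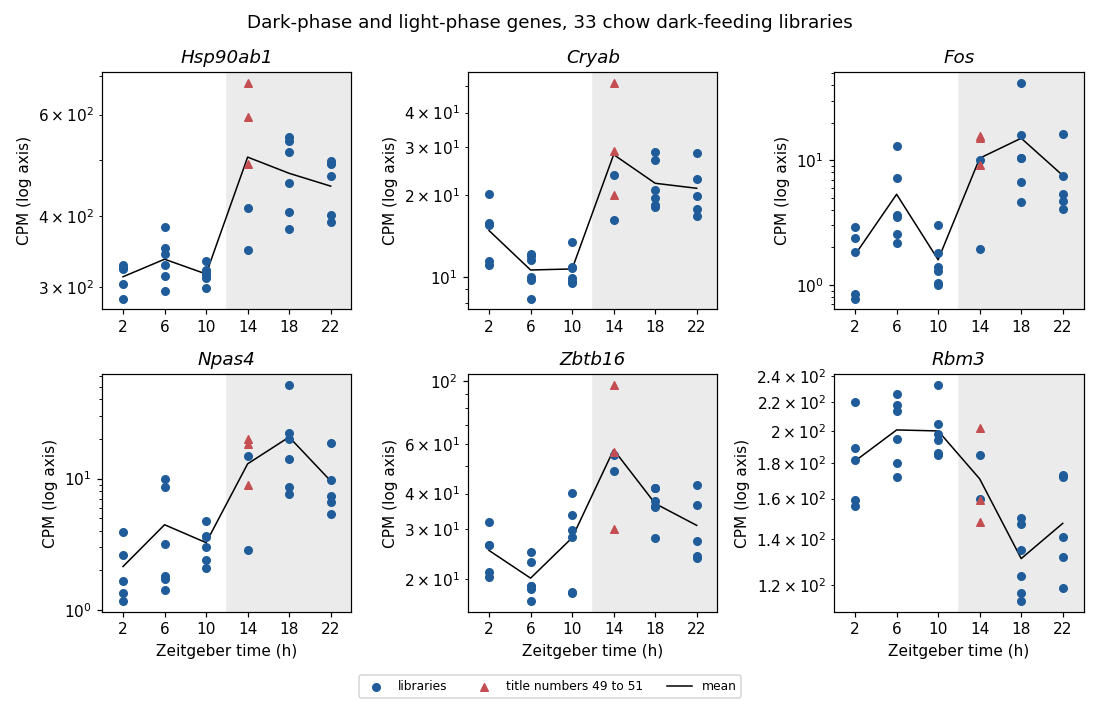
CPM on a log axis (y axis) by Zeitgeber time in hours (x axis) for Hsp90ab1, Cryab, Fos, Npas4, Zbtb16 and Rbm3, with 1 point per library, triangles for title numbers 49 to 51, a line through the means and grey for the dark phase. The first 5 have their highest mean at ZT14 or ZT18, and Rbm3 has its lowest at ZT18.

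Of 25 genes of cholesterol synthesis, 11 were lower in the dark phase and 1 higher (median -0.11), beside 12.2% and 13.4% of all genes. The highest mean of 14 of them, and of 2499 of the 14244 genes tested, fell at ZT10, and 12 passed the F test (35.6% of all genes). Cyp51, a demethylase of the pathway, measured 104, 107, 115, 126 and 151 CPM at ZT2, 134 to 151 with a median of 142 at ZT6, and 138 to 175 with a median of 151 at ZT10. It measured 121, 126, 147, 150 and 157 CPM at ZT14, 108 to 124 with a median of 120 at ZT18, and 104, 110, 114, 116 and 118 at ZT22. ZT10 lay above all of ZT18 and ZT22, by 0.46 against ZT22 (adjusted p = 0.000137), while ZT14 overlapped ZT10. The count was 11 lower and 0 higher without title numbers 49 to 51, beside 991 and 1079 of all 14244 genes.

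Of 14 genes of fatty acid synthesis, 5 were lower in the dark phase and 1 higher, beside 12.2% and 13.4% of all genes. Fasn, the fatty acid synthase, was 0.33 higher at ZT10 than at ZT22 (adjusted p = 0.000593), and Srebf1, which switches on the pathway, 0.61 higher at ZT10 than at ZT18 (adjusted p = 0.00384). For this list the count was 2 lower and 0 higher without title numbers 49 to 51. Among all 14244 genes it was 991 and 1079. Of 21 genes of fatty acid oxidation, 3 were higher, about the share of all genes (13.4%), and 1 was lower. Pdk4, which holds glucose carbon back from oxidation, measured 0.368, 0.583, 0.907, 1.25 and 1.51 CPM at ZT2 and 1.88, 2.35, 2.41, 5.06 and 6.62 at ZT14, 3.81-fold apart (adjusted p = 0.00192). Cpt1a, the entry step of mitochondrial oxidation, ran the other way, 0.53 higher at ZT2 than at ZT18. In the model with marker scores, Fasn (adjusted p = 0.123) and Srebf1 (adjusted p = 0.154) lost their calls. Cpt1a lost its call there too (adjusted p = 0.0619), and Pdk4 kept it (adjusted p = 0.0377). Of 10 LXR targets, which answer to sterols, 4 were lower in the dark phase and 0 higher, beside 12.2% and 13.4% of all genes.

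Of 25 genes of glycolysis, 14 were higher in the dark phase and 3 lower, beside 13.4% and 12.2% of all genes. Without title numbers 49 to 51 only 4 and 2 were, beside 1079 and 991 of all 14244 genes. Gapdh measured 450, 523, 640, 664 and 763 CPM at ZT14 and 355 to 439 with a median of 396 at ZT10 (0.62, or 0.30 without these 3 libraries, adjusted p = 0.0152). Of 19 genes of insulin and FOXO signalling, 7 were higher in the dark phase and 1 lower (5 and 0 without the 3 libraries). The shares of all genes are those given for glycolysis. Klf15, which fasting and glucocorticoids induce in liver, was 0.71 higher at ZT14 than at ZT2 (adjusted p = 0.00026).

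Between consecutive times, most calls stood on either side of ZT14. From ZT2 to ZT6, 11 genes (0.0772%) rose and 16 (0.112%) fell. The sum of 27 is unstable: it ran from 9 without ZT2 replicate 2 to 205 without ZT2 replicate 5, and was 180 with DESeq2 and 804 with title number as covariate. Asah1, a lysosomal ceramidase, rose by 0.36 ± 0.06 and Pcdhga8, a protocadherin, by 0.63 ± 0.11, while Acr fell by 0.86 (SE 0.14) and Inafm1 by 0.59 (SE 0.10). From ZT6 to ZT10, 1 gene (0.00702%), Ciart, rose (1.14 ± 0.21) and 1 (0.00702%), Arntl, fell (-0.56 ± 0.10), both at an adjusted p of 0.0406. Ciart lost its call in 20 and Arntl in 17 of the 33 fits that left out 1 library. Ciart also lost it without title numbers 49 to 51 (adjusted p = 0.0702). Without ZT2 replicate 4, the library off its clock label, both kept their call with unchanged differences. The adjusted p was then 4.43e-05 for Ciart and 0.0014 for Arntl. From ZT10 to ZT14, 1823 genes (12.8%) rose and 1835 (12.9%) fell. From ZT14 to ZT18, 1652 (11.6%) rose and 1854 (13%) fell. From ZT18 to ZT22, 0 rose and 0 fell (0% each, edgeR), with 725 at an unadjusted p under 0.05 and 2 called by DESeq2. From ZT22 to ZT2, 33 (0.232%) rose and 67 (0.47%) fell. These 100 calls became 16 without ZT22 replicate 4, 149 without ZT22 replicate 2, 201 with DESeq2 and 8 with marker scores. In this step Diexf fell by 0.71 (SE 0.10) and Arhgap10 by 0.46 (SE 0.07), while Acr rose by 0.81 ± 0.15 and Eif3b, a translation initiation factor, by 0.30 ± 0.06.

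Without title numbers 49 to 51, the step from ZT10 to ZT14 had 5 calls (2 up, 3 down, 1921 at an unadjusted p under 0.05) and that from ZT14 to ZT18 had 0 (edgeR, 1615 at an unadjusted p under 0.05). In that fit ZT14 had 2 libraries, and the fit takes them to vary like the others. On log2(FPKM + 0.1), limma called 2479 rises and 917 falls from ZT10 to ZT14 and 622 rises and 2286 falls from ZT14 to ZT18, with a median change over all genes of 0.10 and -0.09. With all 33 libraries the shortest 10% of genes changed by a median of 0.40 from ZT10 to ZT14 and the longest 10% by -0.19, against 0.01 over all genes, and by -0.39 and 0.19 from ZT14 to ZT18. With each library's trend by transcript length removed, the 2 steps had 2182 and 2046 calls. Tmem63c, named above, fell by 0.81 from ZT10 to ZT14 and kept its call without the 3 libraries (-0.60, adjusted p = 0.015).

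**Figure D4:**
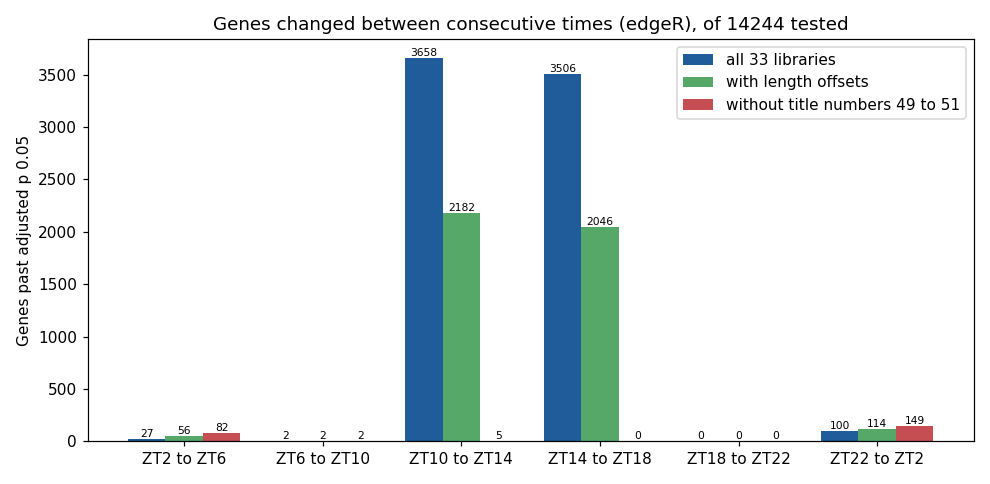
Number of genes past an adjusted p of 0.05 in edgeR (y axis) in each 4 h step (x axis), of 14244 tested, with all 33 libraries, with length offsets and without title numbers 49 to 51. The steps into and out of ZT14 have 3658 and 3506 calls with all libraries, 2182 and 2046 with length offsets, and 5 and 0 without the 3 libraries.

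The lists with short transcripts stood out in those steps. Of 74 cytosolic ribosomal protein genes, 73 rose from ZT10 to ZT14 (median 0.58) and 73 fell from ZT14 to ZT18 (median -0.68). Among all genes 12.8% rose and 13% fell in these steps. Rpl32, of the large subunit, measured 35.9 to 43.7 CPM with a median of 42.3 at ZT10, 45.1, 57.4, 62.1, 74.6 and 86 at ZT14, and 32.2 to 41.8 with a median of 38.3 at ZT18. The 3 highest ZT14 values are those of title numbers 49 to 51, but the other 2 also lay above ZT10 and ZT18. Its difference between ZT14 and ZT18 was 0.80 with all libraries (adjusted p = 1.94e-05), 0.45 without the 3 libraries (adjusted p = 0.0518) and 0.14 with length offsets (adjusted p = 0.397). Without the 3 libraries 0 of the 74 passed the F test (edgeR) and the median rise from ZT10 to ZT14 was 0.17. Rps29, of the small subunit, rose from ZT10 to ZT14 by 0.90 with all libraries, by 0.48 without the 3 (adjusted p = 0.0818), and read -0.07 with length offsets (adjusted p = 0.284).

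Of 74 genes of oxidative phosphorylation, the mitochondrial respiratory chain, 69 rose from ZT10 to ZT14 (median 0.71) and 61 fell from ZT14 to ZT18 (median -0.65). Among all genes 12.8% rose and 13% fell in these steps. Cox7c, a cytochrome oxidase subunit, measured 16 to 22.8 CPM with a median of 18.2 at ZT10, 22, 29.6, 33.3, 39.8 and 43.3 at ZT14, and 16.8 to 19.9 with a median of 17.3 at ZT18. Its difference between ZT14 and ZT18 was 0.93 with all libraries, 0.54 without the 3 libraries (adjusted p = 0.035) and 0.23 with length offsets (adjusted p = 0.109). Cox7b and Atp5g3, of the oxidase and the ATP synthase, had 1.11 and 0.85 from their lowest time to ZT14, and 0.63 and 0.42 without the 3 libraries. Over the list, 66 passed the F test with all libraries and 6 without the 3, beside 5075 and 2079 of all 14244 genes. Without the 3 the median rise of the list into ZT14 was 0.24.

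Erythrocyte genes, among them the haemoglobins, also peaked at ZT14. Hba1, an alpha globin, measured 188, 213, 227, 250 and 252 CPM at ZT2, 187 to 372 with a median of 276 at ZT6, and 107 to 192 with a median of 139 at ZT10. It measured 193, 301, 654, 1810 and 3370 CPM at ZT14, 140 to 356 with a median of 251 at ZT18, and 120, 132, 163, 253 and 288 at ZT22. The 3 highest values are title numbers 49 to 51. ZT14 exceeded ZT10 8.88-fold (log2 3.15, adjusted p = 4.67e-06) with all libraries, by 0.80 without the 3 (adjusted p = 0.0435) and by -0.03 with marker scores in the model, which include these genes (adjusted p = 0.948). All 6 erythrocyte genes rose from ZT10 to ZT14 (12.8% of all genes did). Without the 3 libraries 1 of the 6 passed the F test, beside 2079 of all 14244 genes. Haemoglobin genes are close copies, so their separate values are uncertain.

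S100a9, a calcium-binding protein of neutrophils and monocytes, measured 3.44, 6.46, 7.54, 9.42 and 20.4 CPM at ZT14 and 1.15, 1.2, 1.55, 2.33 and 2.57 at ZT22, without overlap. The highest of these is not one of title numbers 49 to 51, and ZT14 exceeded ZT22 by 2.43 with all libraries (adjusted p = 0.00104) and by 2.93 without the 3 (adjusted p = 0.00259), where ZT14 rests on 2 libraries at 6.46 and 20.4 CPM. With marker scores the ZT14 to ZT22 call was lost for S100a9 (adjusted p = 0.205), S100a8 (adjusted p = 0.295) and Ngp (adjusted p = 0.327), and with title number as covariate for S100a8 (adjusted p = 0.107) and Ngp (adjusted p = 0.051). All 4 genes of the list passed the F test, and 3 did without the 3 libraries. One ZT6 library stood at 30 CPM for S100a9 and at 90.9 for the summed list, against 18.6 to 31 in the other 5.

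**Figure D5:**
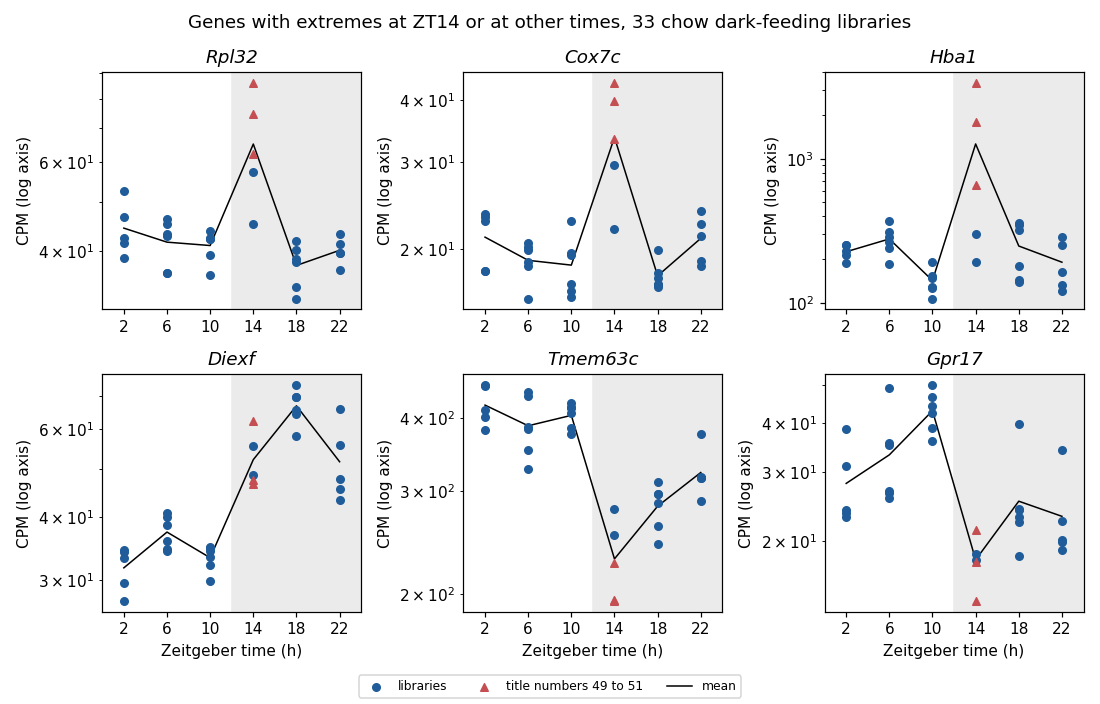
CPM on a log axis (y axis) by Zeitgeber time in hours (x axis) for Rpl32, Cox7c, Hba1, Diexf, Tmem63c and Gpr17, with 1 point per library, triangles for title numbers 49 to 51, a line through the means and grey for the dark phase. In the first 3 the triangles are the highest ZT14 libraries. For Tmem63c they are the lowest, at 195, 196 and 226 CPM against 253 and 280. For Diexf and Gpr17 they overlap the other ZT14 libraries.

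Of 24 homeostatic microglia genes, 16 fell from ZT14 to ZT18 (median -0.53) and 0 rose, beside 13% and 11.6% of all genes. Over the whole day 0 were higher and 4 lower in the dark phase (median -0.16), beside 13.4% and 12.2% of all genes. The summed level of the 24 had a median of 2750 CPM at ZT2, 2950 at ZT6, 2780 at ZT10, 3410 at ZT14, 2460 at ZT18 and 2520 at ZT22. Mef2c, a transcription factor, measured 57.6, 66.3, 67.5, 76.7 and 82 CPM at ZT14 and 43.6 to 55.8 with a median of 48.5 at ZT18, without overlap (0.52, adjusted p = 0.000974, and 0.35 without title numbers 49 to 51, adjusted p = 0.0495). Aif1, an actin-binding marker, measured 12.5, 16.5, 18, 18 and 20.9 CPM at ZT14 and 6.05 to 11.7 with a median of 9.62 at ZT18, again without overlap (0.89, adjusted p = 0.00142, and 0.65 without the 3 libraries, adjusted p = 0.0246). Without the 3 libraries 5 of the 24 passed the F test, against 14 with all, and 5 were lower in the dark phase. Among all 14244 genes 2079 passed without the 3 libraries, against 5075 with all, and 991 were lower. The step from ZT14 to ZT18 then had a median of -0.27 over the list and no call. The ZT18 group holds title numbers 142 and 143, with summed levels of 1510 and 1920 CPM. Without them and 151 the median of the step was -0.41 and 9 of the 24 passed the F test. In that fit 4974 of all 14244 genes passed. Lists of other cells also had negative medians in this step, -0.65 in astrocyte, -0.72 in endothelial, -0.78 in T and NK cell and -0.91 in meningeal genes, and their part in the microglial values was not tested.

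Of 21 genes of disease-associated microglia, 14 passed the F test, 15 fell from ZT14 to ZT18 (median -0.70), and 1 was higher and 1 lower in the dark phase. Among all genes 35.6% passed, 13% fell in this step, 13.4% were higher and 12.2% lower. With title numbers 49 to 51 left out, 5 of the 21 passed the F test, 0 were higher and 5 lower in the dark phase, and the step had no call. With 142, 143 and 151 left out, 7 passed it, beside 4974 of all 14244 genes, and the median of the step was -0.54. Gpnmb, a glycoprotein of that state, was 0.73 higher at ZT10 than at ZT18 (adjusted p = 0.000549, and 0.00269 without the 3 libraries). Of 13 MHC class II genes, 4 were lower in the dark phase and 1, the regulator Rfx5, was higher (median -0.32). Without the 3 libraries 7 of them were lower, beside 991 of all 14244 genes. Of 22 genes of the type I interferon response, 7 passed the F test, below the share of all genes (35.6%). Without the 3 libraries 3 did, beside 2079 of all 14244 genes. Stat2, a signal transducer of interferon, was 0.35 higher at ZT2 than at ZT14 (0.23 without the 3 libraries), and Irf9, its partner, 0.31 higher at ZT18 than at ZT10. Of 16 NF-kB and cytokine genes, 2 passed: Il18 was 0.72 higher at ZT6 than at ZT18 and Ptgs2, the inducible cyclooxygenase, 0.93 higher at ZT18 than at ZT2. Of 32 genes of the phagosome and lysosome, 21 passed the F test with all libraries and 6 without the 3. Among all 14244 genes 5075 and 2079 passed.

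Genes of other cell types were followed as well, and their part in the courses above was not tested beyond the fits with marker scores. Of 9 oligodendrocyte precursor genes, 6 passed the F test, 8 had their highest mean at ZT10 and 4 were lower in the dark phase. Among all 14244 genes 35.6% passed, 2499 were highest at ZT10 and 12.2% were lower. Gpr17, a receptor of committed precursors, measured 23, 23.6, 24, 31.1 and 38.6 CPM at ZT2, 25.8 to 49 with a median of 31 at ZT6, and 35.9 to 49.9 with a median of 43.3 at ZT10. It measured 14.1, 17.7, 17.9, 18.6 and 21.4 CPM at ZT14, 18.3 to 39.7 with a median of 23.5 at ZT18, and 19, 19.9, 20.2, 22.5 and 34.1 at ZT22. Every ZT14 library was below every ZT10 library, 2.39-fold on average (log2 1.26, adjusted p = 6.59e-05, and 1.23 without title numbers 49 to 51, adjusted p = 0.00147). The ZT10 libraries with title numbers 128 to 130 read 44.2 to 49.9 CPM and those with 41 to 44 read 35.9 to 42.3. No ZT14 library had a title number above 69. With title number as covariate the difference was 1.08 (adjusted p = 6.45e-07). Pdgfra, the growth factor receptor of precursors, was 0.66 higher at ZT10 than at ZT22, and Cspg4, a proteoglycan on the same cells, 0.65 higher.

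Mature oligodendrocyte genes gave 2 calls of 13 over the 6 times (15.4%), below the 35.6% of all genes. In the dark phase 2 were lower, beside 12.2% of all genes. Without the 3 libraries 0 passed (edgeR) and 1 was lower. Their summed level ran from 11600 to 23700 CPM, with time medians between 13400 at ZT22 and 17500 at ZT10. Of 15 neuron genes, 9 were higher in the dark phase and 3 lower, beside 13.4% and 12.2% of all genes. Without the 3 libraries 6 were higher and 1 lower, beside 1079 and 991 of all 14244 genes. Nefl, a neurofilament, measured 46.3, 46.7, 56, 64.2 and 86.8 CPM at ZT14 and 24.9 to 38.6 with a median of 31.3 at ZT10, without overlap (0.92, or 0.56 without the 3 libraries, adjusted p = 0.0926). Of 10 cerebellar neuron genes, 7 passed the F test and 4 did without the 3 libraries, beside 5075 and 2079 of all 14244 genes. Calb1, of Purkinje cells, was 1.30 higher at ZT14 than at ZT18, and 0.63 without the 3 libraries (adjusted p = 0.19). Fat2, a cadherin of granule cells, was 0.61 lower at ZT14 than at ZT10, and 0.36 without them (adjusted p = 0.0213).

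The remaining marker lists had 1 call each over the 6 times in astrocytes (of 14), endothelium (of 11), mural cells (of 7), T and NK cells (of 13) and choroid plexus (of 6), 2 in border-associated macrophages (of 7) and 6 in meningeal fibroblasts (of 11), which had 0 without the 3 libraries. Among these lists only the meningeal one (54.5%) was called more often than all genes (35.6%). From ZT14 to ZT18, 7 astrocyte, 3 endothelial, 0 mural, 8 T and NK cell, 3 choroid plexus, 1 border-associated macrophage and 8 meningeal genes fell. Among all genes 13% fell in this step. Without title numbers 142, 143 and 151 the median of this step was -0.30 in astrocyte and -0.32 in endothelial genes. It was -0.61 in T and NK cell and -0.57 in meningeal genes. In that fit 6 astrocyte genes passed the F test and 5 were higher in the dark phase, beside 4974 and 1723 of all 14244 genes. Igf2, a growth factor of meninges, measured 51.5, 60, 65.9, 71.6 and 94.1 CPM at ZT14 and 9.9 to 35.1 with a median of 29.7 at ZT18, without overlap (1.47, adjusted p = 0.000962), and its call was lost without the 3 libraries (1.17, adjusted p = 0.074).

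A component of 12 h period, beside the 24 h terms, was called in 1115 genes (7.83%). It was called in 57 of 74 ribosomal protein genes and 47 of 74 genes of oxidative phosphorylation, the lists that changed on both sides of ZT14. Ppia, a peptide-bond isomerase, had the smallest adjusted p with Ptms (0.000761 each). It measured 143, 148, 153, 164 and 186 CPM at ZT2, 109 to 135 with a median of 124 at ZT6, and 110 to 147 with a median of 126 at ZT10. It measured 152, 183, 237, 268 and 285 CPM at ZT14, 93 to 143 with a median of 118 at ZT18, and 115, 123, 136, 146 and 150 at ZT22. The highest 3 are title numbers 49 to 51, while ZT2 and ZT14 both stood above ZT6, ZT10 and ZT18 in most libraries. Ppia, Ptms, Mrpl54, a mitochondrial ribosomal protein, and Atpif1, an inhibitor of the ATP synthase, all lost the 12 h call without the 3 libraries (adjusted p from 0.0974 to 0.144), where edgeR called 0 genes and 1560 had an unadjusted p under 0.05. Without ZT14 altogether it called 2.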

How the data were processed

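RNA of 33 libraries labelled microglia was compared over 6 Zeitgeber times, and libraries of the other chow groups served for comparison. An RNeasy Micro kit gave the RNA, per the labels' protocols, mRNA was selected with Dynabeads, and directional libraries were sequenced on a DNBSEQ-G400. The authors deposited expected counts per gene, of which 8.03% of entries were not whole, and FPKM values per gene. Per the submitters' processing notes the genome was Rnor_6.0. No aligner or counter is given in the sources used here. The design foresaw whole counts, so the deposited expected counts were rounded and then tested in the same way. Totals ran from 4.75 M to 9.42 M per library, so genes near 1 CPM rest on few reads.

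Genes with a mean of at least 1 CPM over the 33 libraries were tested with edgeR 4.0.16 (quasi-likelihood, TMM scaling) in R 4.3.3: an F test over 6 times, cosine terms of 24 h and 12 h, the dark minus the light phase, 6 consecutive steps, and the difference in cosine from each other chow group. P-values were adjusted by Benjamini-Hochberg over all genes tested. CPM values are TMM-scaled. Alternatives used DESeq2 1.42.0, limma 3.58.1 on log2(FPKM + 0.1) and log2(FPKM + 1) for genes with a mean of at least 0.1 FPKM, other filters, title number as covariate, units made of runs of adjacent title numbers (13 units), marker scores of other cell types as covariates, each library or time left out, and, chosen after seeing the data, offsets by transcript length and fits without title numbers 49 to 57 or 142, 143 and 151. The scripts were tested on simulated data. Of 763 list entries 757 matched the tables, and 27 symbols that a spreadsheet had turned into dates were replaced through the gene ID.

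The members and the 37 gene lists were chosen with earlier results of these data known. Genes named are the clock list, the 20 others with the smallest adjusted p over 6 times, the 6 with the largest dark minus light difference in each direction, the 4 with the smallest adjusted p at 12 h, 2 per direction and step, and up to 3 per list, all but the clock list and the list members with a mean of at least 5 CPM. The genes described at length were picked from these, and some of them are not reported here. Promoter sequences are RefSeq's. Where 2 genes overlap or are close copies, the counting step could split their reads, and those values are uncertain.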

Additional observations from a re-analysis of the deposited data

Results flagged for a closer look

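Some libraries lay far from the others of their time. Of 156 sets of libraries examined, 15 had a highest or lowest library whose gap to the next was large for the range, where chance gives about 1 in 20. At ZT2, 1 library read 22.7 CPM for Ciart (6.26 to 8.19 in the others), 102 for Nr1d1 (46.1 to 53.1), 127 for Nr1d2 (92.5 to 98.1) and 206 for Tef (129 to 146). At ZT10, Per1 stood at 147 CPM in 1 library (215 to 264 in the others), Bhlhe41 at 43.6 (54.6 to 57.5) and Nfil3 at 8.96 (4.72 to 5.88). Rorb was low in 1 library at each light-phase time, with 3.37 CPM at ZT2 (6.39 to 8.29), 3.84 at ZT6 (7.53 to 10.3) and 4.65 at ZT10 (7.77 to 9.91). Npas2 reached 40.6 CPM in 1 library at ZT14 (29.3 to 30.8), and Tef 265 in 1 at ZT22 (150 to 166). The total of 1 ZT14 library was 8.87 M (7.53 to 7.7 M in the others). The summed neutrophil and monocyte markers reached 90.9 CPM in 1 ZT6 library (18.6 to 31), and the summed homeostatic microglia genes 3380 in 1 ZT2 library (2660 to 2800).

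Daily courses differed between chow groups by a test of the difference itself. The 24 h cosine differed in 4 genes from chow ad libitum and in 5343 from chow light-feeding (edgeR). Among the clock genes the adjusted p against chow light-feeding was 4.7e-07 for Arntl, 5.09e-07 for Dbp, 1.81e-06 for Ciart, 6.81e-06 for Per2 and 3.02e-05 for Nr1d1. It was 6.55e-05 for Clock, 0.000309 for Hlf, 0.000463 for Cry1, 0.000581 for Nr1d2 and 0.000796 for Bhlhe41. It was 0.0012 for Per3, 0.00245 for Per1, 0.00586 for Npas2, 0.00766 for Tef and 0.0153 for Rorb. Without title numbers 49 to 57 Rorb lost this call (adjusted p = 0.0704), and the difference for Bhlhe41 moved from 0.51 to 0.33 (adjusted p = 0.0136).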

How the results depend on the processing

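With 13 runs of adjacent title numbers as units, the F test over 6 times called 10 genes, the 24 h cosine 109, the 12 h component 1, dark minus light 182 and any step 1, against 5075, 3255, 1115, 3647 and 5476 with libraries as the unit. With marker scores in the model the counts were 1406, 1057, 217, 1200 and 333, and 0 and 1232 for the difference in cosine from chow ad libitum and chow light-feeding (edgeR). Without title numbers 49 to 57 the F test called 2079, dark minus light 2070, any step 221, the 12 h component 0 (edgeR, 1560 at an unadjusted p under 0.05) and the difference from chow ad libitum 1. Without ZT14 the F test called 2361, the 12 h component 2, and the differences from chow ad libitum and chow light-feeding 296 and 3422. Length offsets gave 267 for 12 h, 3590 for any step and 1 for the difference from chow ad libitum. The 12 h component also moved to 735 on log2(FPKM + 0.1), 342 with title numbers up to 119, 1835 with all 200 libraries, 592 without ZT10, 708 without ZT18 and 2871 without ZT22. Dark minus light moved to 2384 with title numbers up to 119 and 2112 without ZT10. The difference from chow ad libitum was 4 in the fit as reported, 146 with DESeq2, 7 with edgeR's own filter and 157 with title number as covariate. The cause of these moves was not tested.

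Leaving out 1 library, the counts ran from 3806 to 5760 (F test), 2787 to 3640 (cosine), 517 to 1744 (12 h), 3047 to 3985 (dark minus light), 3711 to 6114 (any step), 0 to 169 (difference from chow ad libitum) and 4691 to 5664 (from chow light-feeding). The lowest F, cosine, 12 h and step counts came without ZT14 replicate 2, and the 169 without ZT22 replicate 5. The direction turned in 4 named values: with marker scores, which include them, Hba1 read -0.025, Hba2 -0.068 and Hbb -0.179, and Rps29 read -0.073 with length offsets. Fits that leave out a time give no count over consecutive steps. No paired analysis was possible because the replicates were numbered in accession order.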
